A study of Mus musculus with 16 samples.

Results

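The genes described here carry glucose and fructose into hepatic glycolysis, set its pace, or sense its sugar phosphates: Slc2a2, Gckr, Pfkl, Pfkfb1, Pklr, Khk, Mlxipl and Txnip. They were chosen by name, with earlier results of these data known. All 8 were found among the 46078 genes of the count table, and all 8 were among the 15075 genes that passed the filter on low counts. Poly(A) RNA of liver was sequenced in 16 libraries from male mice of 1 strain, spelled C56B6/J in the labels, that had spent 16 weeks on a control diet (CD) or on a high fat diet (HFD) with 60% of its calories from fat. Livers came from mice fed ad libitum or fasted for 16 h, which gives 4 groups, CD fed, CD fast, HFD fed and HFD fast, with 4 libraries each. No transgene, gene deletion or drug was part of these groups. The sources used here do not say in words that each library came from its own mouse, so p-values measure the spread between these libraries, which may in part be technical.

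In the liver, glucose crosses the hepatocyte membrane through a facilitative carrier and is trapped by phosphorylation, and the pace of glycolysis is then set mainly at phosphofructokinase and at pyruvate kinase. After a carbohydrate meal, sugar phosphates activate ChREBP, the transcription factor encoded by Mlxipl, which pairs with its partner MLX and binds carbohydrate response elements, paired E-box-like sequences, in the promoters of glycolytic and lipogenic genes. Pyruvate kinase and TXNIP are textbook examples of products whose genes respond to glucose through ChREBP, and fasting is known to turn hepatic glycolysis down while the liver releases glucose.

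The RefSeq promoters of these genes (GRCm38.p6, 250 bases before to 50 bases after each annotated start, 13 windows for the 8 genes) were searched on both strands for the E-box CACGTG and for pairs of similar boxes. The pair was written CANGNGNNNNNCNCNTG, with 5 bases between its boxes, and 0.557% of all 32851 RefSeq promoter windows held it, whereas 7.15% held the E-box. A pair with both boxes in the same direction, CACGAGNNNNNCACGAG, was added after the Txnip window had been read, and that window was the only 1 of the 32851 to hold it. Matches were found for 4 of the 8 genes, and none overlapped another. The E-box was in 2 of the 8, against 8.09% of 27025 genes with RefSeq promoters. The first pair was in 1 of the 8, against 0.64%. The Txnip match was fixed in advance, because its pair was written from that window. These 4 are shown because they held a match. Khk and Mlxipl held a single E-box and no pair, and binding of ChREBP to any of the 4 was not tested. Each line gives the 250 bases that end directly before the start, 5′ to 3′ on the plus strand, with the matched letters in capitals. Pklr is shown at chr3:89136373-89136622, before the downstream of its 2 starts, with the pair at bases -170 to -154 from the start. Txnip is shown at chr3:96557707-96557956 with the same-direction pair at -85 to -69. Khk is shown at chr5:30921309-30921558 with an E-box at -71 to -66, and Mlxipl at chr5:135089640-135089889, before the upstream of its 2 starts, with an E-box at -98 to -93.
Pklr: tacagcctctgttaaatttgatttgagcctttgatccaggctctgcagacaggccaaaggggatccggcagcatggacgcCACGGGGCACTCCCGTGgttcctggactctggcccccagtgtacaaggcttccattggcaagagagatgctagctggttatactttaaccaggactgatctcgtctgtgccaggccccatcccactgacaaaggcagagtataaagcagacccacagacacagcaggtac
Txnip: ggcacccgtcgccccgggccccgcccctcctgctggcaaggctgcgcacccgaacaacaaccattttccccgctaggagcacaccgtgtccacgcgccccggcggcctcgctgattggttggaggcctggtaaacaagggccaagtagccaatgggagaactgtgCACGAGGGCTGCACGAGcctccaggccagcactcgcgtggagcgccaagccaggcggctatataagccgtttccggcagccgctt
Khk: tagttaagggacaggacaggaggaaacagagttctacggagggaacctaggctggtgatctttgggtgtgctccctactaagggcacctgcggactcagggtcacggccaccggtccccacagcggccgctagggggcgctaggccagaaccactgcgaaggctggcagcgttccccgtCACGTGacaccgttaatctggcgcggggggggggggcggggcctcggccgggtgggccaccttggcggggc
Mlxipl: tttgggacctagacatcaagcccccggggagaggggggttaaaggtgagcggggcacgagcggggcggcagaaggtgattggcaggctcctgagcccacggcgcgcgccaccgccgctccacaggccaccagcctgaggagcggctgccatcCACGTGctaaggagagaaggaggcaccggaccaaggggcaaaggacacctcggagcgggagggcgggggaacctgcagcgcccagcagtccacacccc

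The windows of Gckr, Pfkl and Slc2a2 and the 4 windows of Pfkfb1 held none of these letters, which says nothing about sequence outside them. The Pklr starts lie 481 bases apart, and as background the upstream one serves red cells and the downstream one the liver. The Mlxipl starts lie 17001 bases apart and belong to the forms known as ChREBP beta, upstream, and ChREBP alpha, downstream. Gene counts add up the forms, so they could not be told apart here.

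Library totals lay between 41364448 and 57583153 counts. Levels are given as CPM, the count relative to the library total scaled by TMM, a factor per library that offsets differences in RNA composition. These factors ran from 0.929 in CD fast library 4 to 1.13 in HFD fast library 4. Sums over cell type markers, here and below, are CPM of the plain library total without TMM. A detection floor of 3 counts stood for 0.0536 to 0.0767 CPM. The 6 hepatocyte markers, among them Alb, Apoa1 and Ttr, summed to 102821 to 136250 CPM in CD fed and 81141 to 104217 CPM in CD fast, and to 111296 to 144844 CPM and 73095 to 102903 CPM in fed and fasted mice on the HFD. None was at 0, and 1 of the 6 was called, for fasting in CD, where 25.2% of all genes tested were called. Adipocyte markers reached 70.6 CPM in 1 HFD fast library. The part of these shifts in the results was not tested. Fewer cells of a type and less RNA per cell cannot be told apart in bulk liver. CD fed library 1 had the lowest CD fed level of 6 of the 8 genes, all but Pfkl and Txnip, and results that rest on it are given with and without it.

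In mice fed the CD, fasting lowered most of these genes. Pklr fell furthest, to 15.5% of its fed level, Khk and Mlxipl fell to 46.2% and 50.4%, and Pfkfb1, Slc2a2 and Gckr to 60.6%, 61.4% and 70.1%. These 6 of the 8 genes passed the edgeR quasi-likelihood test at an adjusted p below 0.05, all of them lower, where 25.2% of all genes tested were called and 11.5% were called lower. The same 6 had CD fast libraries that all lay below every CD fed library, as had 12.3% of all genes. The log2 fold change was negative for all 8 genes with a median of -0.71, against -0.01 over all genes. All 6 calls were kept in each of the 16 fits that left out 1 library. Pfkl and Txnip did not pass the test.

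**Figure D1:**
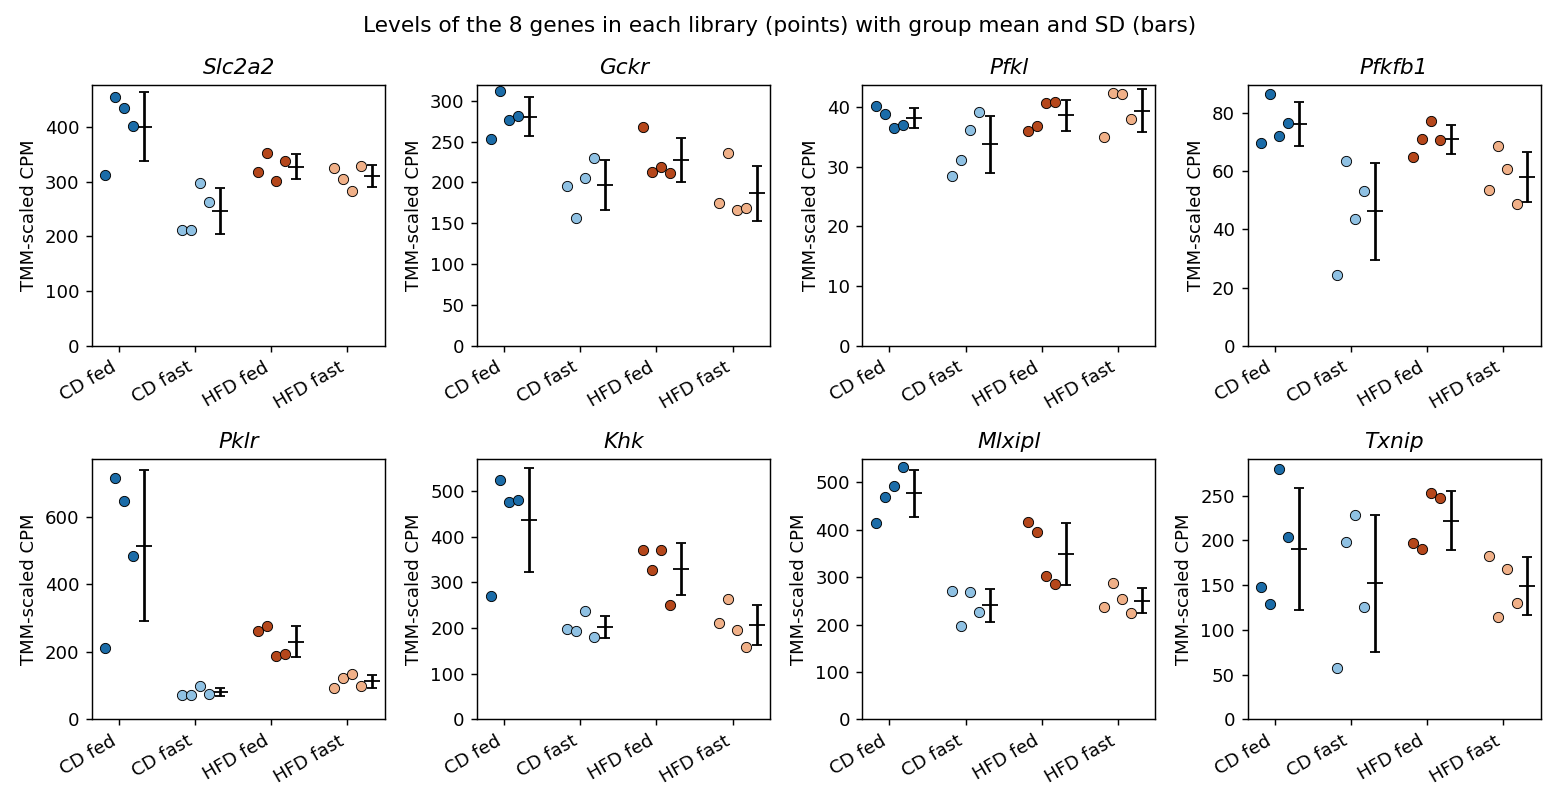
TMM-scaled CPM (vertical axes start at 0) of each of the 8 genes in the 4 groups, 1 point per library, with the mean and SD (n = 4). The CD fast points of Pklr, Khk, Mlxipl, Pfkfb1, Slc2a2 and Gckr lie below all their CD fed points, and Pfkl stays between 28.4 and 42.4 CPM in all 16 libraries.

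At the entry of the pathway, Slc2a2 encodes GLUT2, the high-capacity glucose carrier of hepatocytes (ENSMUSG00000027690, GRCm38 chr3:28697903-28731359, plus strand). It measured 312, 456, 435 and 402 CPM in CD fed libraries 1 to 4 and 212, 212, 298 and 263 CPM in CD fast libraries 1 to 4. In HFD fed libraries it measured 318, 353, 301 and 338 CPM, and in HFD fast libraries 325, 306, 284 and 328 CPM. The CD groups did not overlap, while the HFD groups covered almost the same range. Fasting in CD took the level from 401 ± 63.4 CPM (SD, n = 4) to 246 ± 41.8 CPM, a log2 fold change of -0.70 (SE 0.13, edgeR adjusted p = 0.00113). In HFD the fasted level of 311 ± 20.3 CPM differed from the fed level of 327 ± 23.1 CPM by -0.08 on the log2 scale, with a 95% interval of -0.34 to 0.19 (edgeR adjusted p = 0.746). The 2 diets differed in their fasting change of Slc2a2 by 0.63 (SE 0.18), which missed the threshold with an edgeR adjusted p of 0.0714. That difference passed under DESeq2 (adjusted p = 0.0163), with total count scaling (edgeR adjusted p = 0.0449), without CD fed library 1 (0.73, edgeR adjusted p = 0.0353) and without CD fast library 3 (0.72, edgeR adjusted p = 0.0381).

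Slc2a2 dominated the glucose carriers of the same family. Its part of their summed level per kb of exon was 78.2% in CD fed and 65.7% in CD fast, against 75.0% in fed and 73.5% in fasted mice on the HFD. Of 9 other carriers 7 were tested, Slc2a10 and Slc2a12 having 82 and 49 counts over all libraries, and 1 of the 7 was lower after fasting in CD and 0 were higher, where 11.5% of all genes were called lower. That 1 was Slc2a4, the insulin-responsive carrier of muscle and fat, which was at 0.550 CPM in CD fed and close to the detection floor in CD fast at 0.0715 CPM (edgeR adjusted p = 0.00136). Slc2a4 was also the 1 of the 7 called after fasting in HFD, and lower (0.366 to 0.105 CPM, edgeR adjusted p = 0.0434), where 4.07% of all genes were called lower. Its libraries overlapped there, and the call was lost in 10 of 16 fits that left out 1 library.

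Gckr encodes the regulatory protein that holds the liver's glucose-phosphorylating enzyme inactive in the nucleus (ENSMUSG00000059434, chr5:31297443-31327314, plus strand). Its CD fed libraries measured 253, 312, 277 and 281 CPM and its CD fast libraries 195, 156, 205 and 230.4 CPM. The HFD fed libraries measured 268, 212, 218 and 212 CPM and the HFD fast libraries 175, 237, 166 and 169 CPM, so that 1 library of each HFD group lay well above the rest of its group. Fasting lowered Gckr in CD from 281 ± 24.2 to 197 ± 30.9 CPM (SD, n = 4), a change of -0.51 on the log2 scale (SE 0.13, edgeR adjusted p = 0.0119). In HFD the levels were 228 ± 27.2 CPM fed and 187 ± 33.6 CPM fasted, a difference of -0.29 (SE 0.13, edgeR adjusted p = 0.191). Without HFD fast library 2, the high one, that difference was -0.43 and passed the test (edgeR adjusted p = 0.0440). The fasting changes in the 2 diets differed by 0.23, with a 95% interval of -0.18 to 0.63.

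The first committed step of glycolysis is carried out by phosphofructokinase, whose liver subunit is encoded by Pfkl (ENSMUSG00000020277, chr10:77986947-78010083, minus strand). Pfkl varied least of the 8 genes, its highest group mean being 1.17 times its lowest. It measured 40.1, 38.8, 36.5 and 37.0 CPM in CD fed and 28.4, 31.2, 36.2 and 39.1 CPM in CD fast. In HFD fed it measured 36.0, 36.8, 40.7 and 40.9 CPM and in HFD fast 34.9, 42.4, 42.2 and 38.1 CPM. Libraries overlapped in each of the 4 pairs of groups compared. Fasting changed the mean by -0.18 in CD (95% interval -0.38 to 0.03, edgeR adjusted p = 0.190) and by 0.03 in HFD (95% interval -0.17 to 0.23, edgeR adjusted p = 0.876), neither of which passed the test. Per kb of exon, Pfkl held 41.4 to 49.5% of the summed level of the 3 subunit genes over the 4 groups, and the muscle-type subunit gene Pfkm held 48.5 to 57.2%.

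Pfkfb1 encodes the liver form of the bifunctional enzyme that makes and removes the sugar bisphosphate that activates phosphofructokinase (ENSMUSG00000025271, chrX:150588229-150643878, plus strand). It measured 69.7, 86.7, 72.1 and 76.7 CPM in CD fed and 24.5, 63.7, 43.7 and 53.2 CPM in CD fast. HFD libraries measured 65.1, 71.0, 77.3 and 70.8 CPM when fed and 53.7, 68.7, 61.0 and 48.9 CPM when fasted. The CD fast libraries spread widely, with a coefficient of variation of 36.1% against 9.87% in CD fed, and library 1 was the lowest of them. The change on fasting in CD was -0.72 on the log2 scale (SE 0.20, edgeR adjusted p = 0.0168), and without CD fast library 1 it was -0.51 (edgeR adjusted p = 0.0142). In a fit of the CD libraries alone the call was lost (-0.73, edgeR adjusted p = 0.0543). In HFD the difference was -0.29 (95% interval -0.72 to 0.14, edgeR adjusted p = 0.386). Apex2, on the opposite strand, shares 123 exonic bases with Pfkfb1, 3.06% of its exon length.

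Per kb of exon Pfkfb1 held 62.0 to 73.4% of the summed level of the 4 genes for bifunctional enzymes. Of the 5 genes listed beside it, the other bifunctional enzymes and the fructose bisphosphatases, 2 were higher and 1 lower after fasting in CD. In that comparison 25.2% of all genes were called. Pfkfb3, an isoform with strong kinase activity, fell by 1.69 on the log2 scale in CD (34.5 to 10.7 CPM, edgeR adjusted p = 0.00282), with libraries that overlapped, and by 1.70 in HFD (56.3 to 17.3 CPM, edgeR adjusted p = 0.00875). Fbp2, the muscle-type bisphosphatase, rose from 0.114 to 1.12 CPM in CD (edgeR adjusted p = 7.29e-05). Fbp1, the hepatic bisphosphatase of gluconeogenesis, rose by 0.52 in CD (edgeR adjusted p = 0.0184), a call lost without CD fed library 1 (0.46, edgeR adjusted p = 0.0586) or CD fast library 2 (0.42, edgeR adjusted p = 0.0640).

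Pklr, the pyruvate kinase gene of liver and red cells and so the last step of glycolysis, had the widest range of the 8 genes (ENSMUSG00000041237, chr3:89136142-89146784, plus strand). It measured 211, 714, 648 and 483 CPM in CD fed libraries but 73.0, 72.6, 97.8 and 75.9 CPM in CD fast libraries. HFD fed libraries held 261, 277, 187 and 193 CPM and HFD fast libraries 91.7, 123, 134 and 98.6 CPM. Fed and fasted libraries were separate in both diets, and CD fed library 1 lay within the HFD fed range. Group means were 514 ± 224 CPM in CD fed, 229.5 ± 46.2 CPM in HFD fed, 112 ± 20.2 CPM in HFD fast and 79.8 ± 12.1 CPM in CD fast (SD, n = 4), the highest being 6.44 times the lowest. Fasting changed Pklr by -2.69 on the log2 scale in CD (SE 0.29, 95% interval -3.30 to -2.07, edgeR adjusted p = 2.33e-05), and by -2.95 without CD fed library 1. In HFD fasting brought it to 48.8% of the fed level (log2 -1.03, SE 0.28, 95% interval -1.62 to -0.45, edgeR adjusted p = 0.0307). The latter call was lost without HFD fed library 1 (edgeR adjusted p = 0.0871) or 2 (0.0796), or HFD fast library 1 (0.0845) or 4 (0.0704), while the value stayed between -1.13 and -0.93.

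The HFD in fed mice brought Pklr to 44.7% of its CD level (log2 -1.16, SE 0.28, edgeR adjusted p = 0.0198), although the libraries overlapped through CD fed library 1. Without that library the difference was -1.42 (edgeR adjusted p = 0.000577). The Pklr call was lost without CD fed library 2 (-0.96, edgeR adjusted p = 0.0741) or 3 (-1.03, 0.0525), without HFD fed library 3 (-1.08, 0.0671) or 4 (-1.09, 0.0504), and in a fit of the fed libraries alone (edgeR adjusted p = 0.0618). In fasted mice Pklr measured 140% of its CD level on the HFD, which was not called (log2 0.49, 95% interval -0.09 to 1.07, edgeR adjusted p = 0.276). The fall of Pklr on fasting was smaller in HFD than in CD by 1.65 on the log2 scale (SE 0.39, 95% interval 0.83 to 2.48, edgeR adjusted p = 0.0369). This interaction stood close to the threshold and was lost in 12 of 16 fits that left out 1 library, the adjusted p reaching 0.0819 without CD fed library 2, while its value stayed between 1.45 and 1.91. It was kept without CD fed library 1 (1.91, edgeR adjusted p = 0.00267), CD fast library 3 (1.76, 0.0381), HFD fed library 2 (1.75, 0.0499) or HFD fast library 1 (1.74, 0.0353).

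Pkm, the pyruvate kinase gene of most other tissues, stayed low beside Pklr. Per kb of exon Pklr held 96.9 ± 2.18% of the summed pyruvate kinase level in CD fed and 90.1 ± 1.22% in CD fast, against 94.6 ± 2.27% in fed and 89.1 ± 3.02% in fasted mice on the HFD (SD, n = 4). As Pklr also serves red cells, the 3 erythrocyte markers were summed: 260.5 to 337 CPM in CD fed and 161 to 287 CPM in CD fast, and 245 to 280.2 CPM and 258 to 422 CPM in fed and fasted mice on the HFD. None was at 0, and 1 of the 3 was called for each of fasting in CD, fasting in HFD, the HFD in fasted mice and the interaction. Over all genes tested 25.2, 8.86, 7.70 and 2.59% were called there, in that order. The part of red cells in the Pklr values was not tested. Hcn3, on the opposite strand, shares 711 exonic bases with Pklr, 22.0% of the Pklr exon length. It held 1 to 82 counts per library beside 2839 to 38512 counts of Pklr, between 0.0122 and 0.287% of them.

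**Figure D2:**
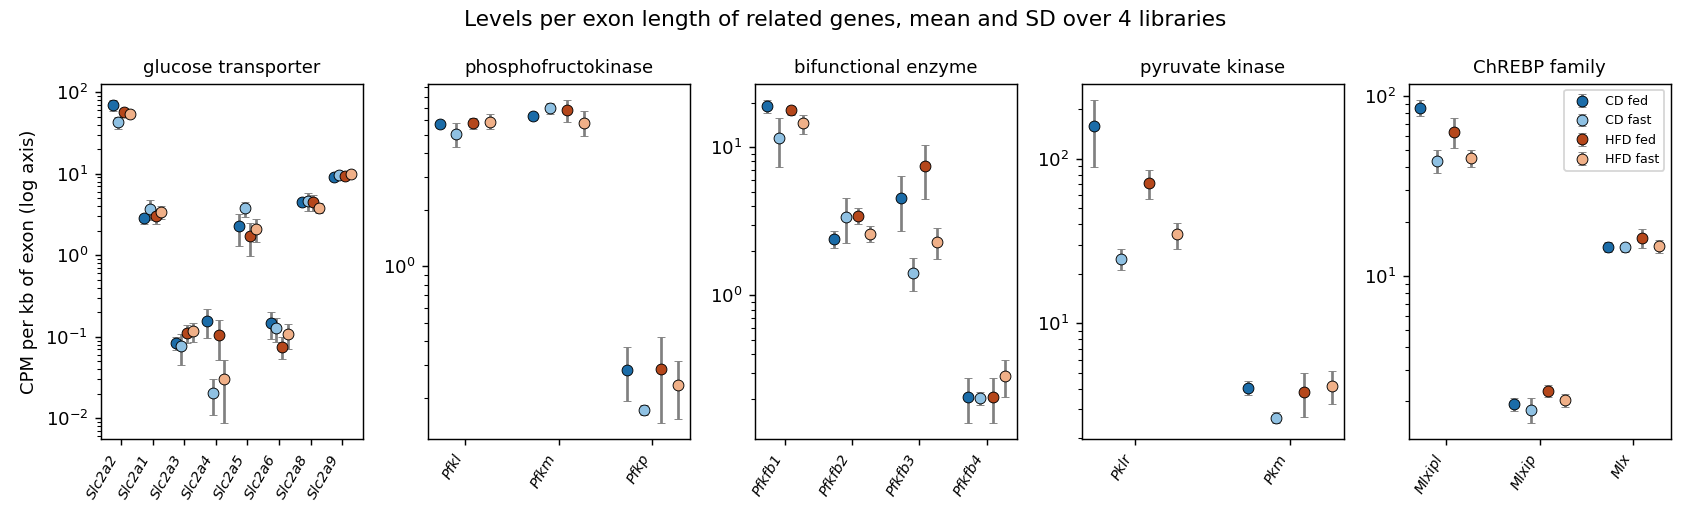
Levels per length (CPM per kb of exon, log axes whose ranges differ between panels) of members of 5 families, as the mean and SD of 4 libraries in each of the 4 groups. Pklr lies above Pkm in each group at 89.1 to 96.9% of their sum. Pfkl and Pfkm lie side by side on this scale, although Pfkl is the higher in CPM.

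Fructose joins glycolysis through ketohexokinase, encoded by Khk (ENSMUSG00000029162, chr5:30921431-30931248, plus strand), which per kb of exon had the highest level of the 8 genes in CD fed liver, at 244 CPM per kb. Khk measured 269, 524, 476 and 482 CPM in CD fed and 198, 193, 237 and 181 CPM in CD fast, groups that did not overlap. In HFD fed it measured 372, 327, 370.3 and 250.3 CPM and in HFD fast 212, 264, 196 and 158 CPM, with HFD fed library 4 just below HFD fast library 2. Fasting in CD took Khk from 438 ± 114 to 202 ± 24.5 CPM (log2 -1.11, SE 0.20, edgeR adjusted p = 0.00101), and without CD fed library 1 the change was -1.29. Fasting in HFD took it from 329.9 ± 56.9 to 207 ± 44.1 CPM (log2 -0.67, SE 0.20, edgeR adjusted p = 0.0449). This second call was lost in 10 of 16 fits that left out 1 library: CD fed library 3 or 4, CD fast library 1 or 2, HFD fed library 1, 2 or 3, or HFD fast library 1, 3 or 4. Its adjusted p then reached up to 0.127, without HFD fed library 1, and its value stayed between -0.82 and -0.56. The call was also lost without the filter on low counts (edgeR adjusted p = 0.0506) and in a fit of the HFD libraries alone (0.0528). In fed mice Khk did not differ past the threshold between diets (log2 -0.41, 95% interval -0.82 to 0.01, edgeR adjusted p = 0.228).

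Of 8 other genes of fructose and polyol handling, 2 were lower and 0 higher after fasting in CD, and 1 was lower after fasting in HFD. Over all genes tested, 25.2% were called and 11.5% called lower for fasting in CD, and 8.86% and 4.07% for fasting in HFD. Tkfc, the triose kinase of fructose breakdown, fell by 1.14 on the log2 scale in CD (571 to 258 CPM, edgeR adjusted p = 0.000512) and by 0.93 in HFD (436 to 228 CPM, edgeR adjusted p = 0.00736). Akr1b3, the aldose reductase that opens the polyol path, fell by 1.08 in CD (8.69 to 4.11 CPM, edgeR adjusted p = 0.00074).

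Mlxipl, the gene of ChREBP itself (ENSMUSG00000005373, chr5:135089890-135138382, plus strand), also fell with fasting. Its CD fed libraries measured 414, 468, 493 and 533 CPM and its CD fast libraries 270.2, 197, 268 and 226 CPM. HFD fed libraries measured 416, 395, 302 and 285 CPM and HFD fast libraries 238, 287, 255 and 224 CPM. The CD groups were well apart, whereas HFD fed library 4 and HFD fast library 2 crossed by a small margin. Fasting changed Mlxipl from 477 ± 49.96 to 240.4 ± 35.2 CPM in CD (SD, n = 4), a log2 fold change of -0.99 (SE 0.14, edgeR adjusted p = 0.000176). In HFD it went from 349.5 ± 65.7 to 250.7 ± 27.2 CPM (log2 -0.48, SE 0.14, edgeR adjusted p = 0.0424). This call in HFD was lost without CD fed library 2 or 3, HFD fed library 1 or 2, or HFD fast library 1, 3 or 4, at an adjusted p of up to 0.142 without HFD fed library 1 (-0.39). It was also lost with total count scaling (edgeR adjusted p = 0.0537), without the filter on low counts (0.0557) and in a fit of the HFD libraries alone (0.0742). A fit with a block for replicate number lost it too (edgeR adjusted p = 0.0625). On the HFD, Mlxipl in fed mice was at 73.3% of its CD level, just short of the threshold (log2 -0.45, SE 0.14, edgeR adjusted p = 0.0601). DESeq2 called that difference (adjusted p = 0.0204), as did edgeR without HFD fed library 1 (-0.54, adjusted p = 0.0441) or CD fast library 2 (-0.45, adjusted p = 0.0479).

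The partner and relatives of ChREBP varied less than Mlxipl. Group means of Mlx, the obligate partner, lay between 14.4 and 16.3 CPM per kb of exon and those of the paralogue Mlxip between 1.80 and 2.29 CPM per kb, while those of Mlxipl ran from 43.4 to 86.1 CPM per kb. Of 5 genes listed for this family of dimerising factors 2 were lower after fasting in CD, where 11.5% of all genes were called lower. They were Mxd4 (log2 -0.32, edgeR adjusted p = 0.00264) and Max (log2 -0.30, edgeR adjusted p = 0.00522). Fasting in HFD, the HFD in fed mice, the HFD in fasted mice and the interaction gave no edgeR call among the 5. Over all genes 8.86, 7.50, 7.70 and 2.59% were called there, in that order. At an unadjusted p below 0.05 there were 1, 2, 0 and 1 of the 5. The share of all genes at that level was 22.9% for the HFD in fed mice and 25.9% in fasted mice. Gm43500, on the opposite strand of Mlxipl, had 0 to 16 counts per library.

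**Figure D3:**
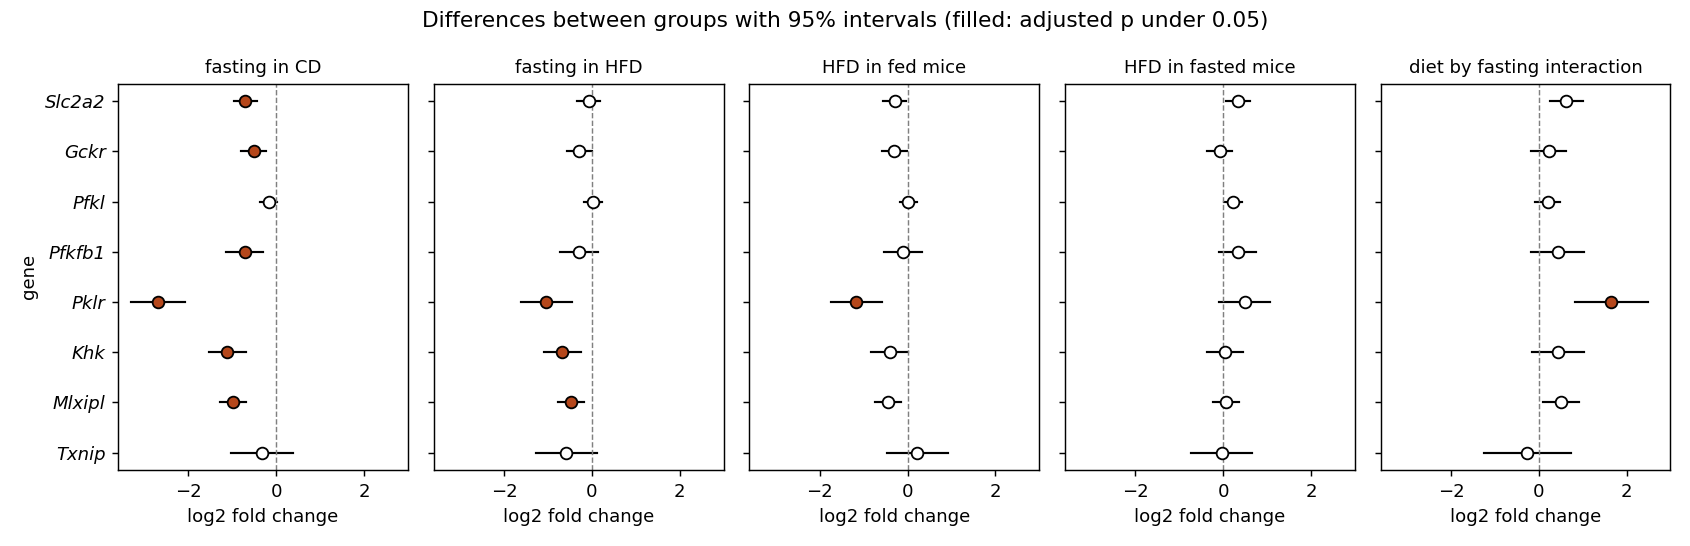
Log2 fold changes of the 8 genes in the 4 comparisons between groups and in the interaction (fasting change in HFD minus fasting change in CD), with 95% intervals from the edgeR fit of all genes and filled points for an adjusted p below 0.05. Filled points number 6 for fasting in CD, 3 for fasting in HFD, 1 for the HFD in fed mice and 0 in fasted mice, and the filled point of the interaction is Pklr at 1.65.

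Txnip encodes thioredoxin-interacting protein, an alpha-arrestin that restrains glucose uptake and whose gene is induced by glucose (ENSMUSG00000038393, chr3:96557957-96561883, plus strand). Its CD fed libraries measured 148, 128, 280.1 and 204 CPM and its CD fast libraries 57.1, 198, 228 and 126 CPM, which overlapped widely. The HFD fed libraries measured 197, 190.2, 253 and 248 CPM, each above the HFD fast libraries at 183, 114, 168 and 129 CPM. The coefficient of variation within CD fast, 50.3%, was the largest of the 8 genes in any group. On fasting in CD the difference was -0.32 (SE 0.33, 95% interval -1.02 to 0.38, edgeR adjusted p = 0.509). In HFD it was -0.58 (SE 0.33, 95% interval -1.28 to 0.13, edgeR adjusted p = 0.289). Neither passed the test, and in the 16 fits that left out 1 library the CD value ranged from -0.59 to -0.05.

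The Txnip locus also holds Gm15441, a gene on the opposite strand (chr3:96555765-96566801) whose exons cover 606 bases, or 19.4%, of the Txnip exons. Reads were aligned in a first-strand mode, but the strand setting of the counting step is not given in the sources used here, so to which gene reads of the shared bases were counted is not known. Gm15441 had 31 to 55 counts in CD fed libraries but 3735 to 5199 in CD fast libraries, and 83 to 558 in HFD fed libraries. HFD fast libraries were divided, with 4316 and 4628 counts in libraries 1 and 3 and 639 and 438 counts in libraries 2 and 4. In CD fast library 1, which had the lowest Txnip level of all 16, the Gm15441 count was 215% of the Txnip count, against 0.272 to 0.457% in CD fed. Fasting raised Gm15441 in CD by 7.09 on the log2 scale (SE 0.87, edgeR adjusted p = 5.51e-05). In HFD the rise was 2.99 (SE 0.69, edgeR adjusted p = 0.0162), a call lost without HFD fed library 1 (2.84, edgeR adjusted p = 0.0612), in a fit of the HFD libraries alone (edgeR adjusted p = 0.0717) and with limma-voom (adjusted p = 0.0555). In fed mice Gm15441 was higher on the HFD by 3.25 (edgeR adjusted p = 0.0232), a call lost in 4 of 16 fits that left out 1 library. In fasted mice it was not called (log2 -0.85, edgeR adjusted p = 0.420). The interaction was -4.10 (edgeR adjusted p = 0.0440), a call lost in 13 of 16 such fits. Both calls were also lost under 1 other setting. The part of Gm15441 reads in the Txnip values was not tested.

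**Figure D4:**
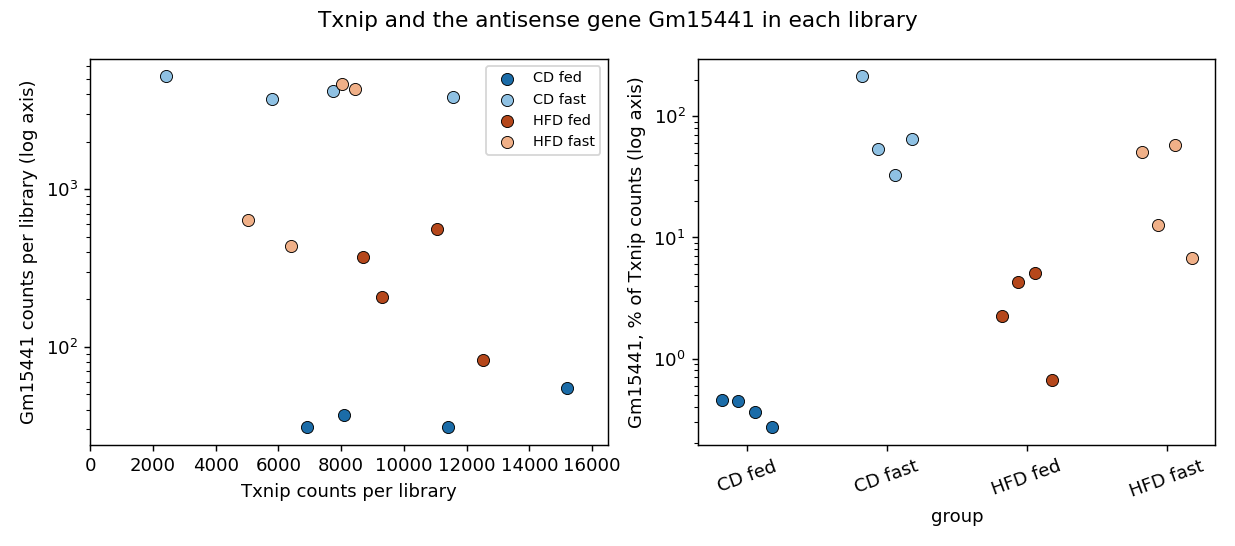
Left, counts of Gm15441 (log axis) against counts of Txnip in each library; right, Gm15441 counts as a percentage of Txnip counts by group (log axis), 1 point per library. Gm15441 lies between 31 and 55 counts in CD fed and between 3735 and 5199 in CD fast, while the Txnip counts of these groups overlap.

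The 7 listed relatives and partners of Txnip, other alpha-arrestins and the thioredoxin genes, gave 1 higher and 1 lower gene after fasting in CD. They gave 1 lower gene after fasting in HFD and 2 lower genes on the HFD in fasted mice. The shares of all genes called in these comparisons were 25.2%, 8.86% and 7.70%, in that order. Arrdc4, an alpha-arrestin gene that also responds to glucose, was lower in HFD fast than in CD fast (16.6 to 8.90 CPM, log2 -0.90, edgeR adjusted p = 0.0209), a call lost without CD fast library 2 (-0.76, edgeR adjusted p = 0.0601) or HFD fast library 3 (edgeR adjusted p = 0.0622). Per kb of exon Txnip held 58.8 to 71.8% of the summed level of the 5 alpha-arrestin genes.

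On the HFD, fasting gave a negative log2 fold change for 7 of the 8 genes, but fewer passed the test. Pklr, Khk and Mlxipl were lower, 3 of 8, where 8.86% of all genes were called and 4.07% were called lower. Pklr and Txnip, 2 of 8, had HFD fast libraries that all lay below the HFD fed libraries, as 8.66% of all genes did. The count of 3 was 0 without HFD fed library 1 or 2 or HFD fast library 1 or 4, 1 without CD fed library 3 or HFD fast library 3, and 4 without HFD fast library 2. The median over the 8 genes was -0.39, against 0.01 over all genes. For the interaction of diet and fasting 1 of 8 was called, Pklr, and it was higher, where 2.59% of all genes were called and 1.23% called higher. Interaction estimates were positive for 7 of the 8, with Txnip the exception at -0.26. These comparisons share libraries with the ones above and add no separate evidence.

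Between diets few of the 8 genes passed the test. In fed mice 1 of 8, Pklr, was lower on the HFD, where 7.50% of all genes were called and 4.22% called lower. At an unadjusted p below 0.05 there were 4 of 8, Slc2a2, Gckr, Pklr and Mlxipl, all lower, against 22.9% of all genes in either direction. The log2 fold change was negative for 6 of the 8, with a median of -0.30. None of the 8 had HFD fed libraries clear of the CD fed libraries, against 15.7% of all genes. In fasted mice, where the median of the 8 was 0.14, 0 of 8 were called by edgeR, against 7.70% of all genes, and DESeq2 also called 0. At an unadjusted p below 0.05 there were 2 of 8, Slc2a2 and Pfkl, against 25.9% of all genes, and none of the 8 was free of overlap, against 14.0%. Both were higher on the HFD, Slc2a2 by 0.33 (edgeR adjusted p = 0.110) and Pfkl by 0.22 (edgeR adjusted p = 0.148). With total count scaling these were 0.50 (edgeR adjusted p = 0.0235) and 0.38 (edgeR adjusted p = 0.0164), where the median of all genes stood at 0.17, and Slc2a2 was also called without CD fast library 3 (edgeR adjusted p = 0.0496). Group means ran in the order CD fed, HFD fed, HFD fast, CD fast for Slc2a2, Pfkfb1, Pklr, Khk and Mlxipl. Neighbours in the order overlapped in their libraries except HFD fed and HFD fast for Pklr. For Gckr and Txnip HFD fast was lowest, an order of the fasted groups that turned with total count scaling, and for Pfkl it was highest.

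Calls among the other glycolysis genes went in both directions. Of 19 other glycolysis genes 18 were tested, Eno2 having 72 counts in all. After fasting in CD 4 were higher, 3 lower and 11 not called, where 25.2% of all genes were called. Their median log2 fold change was 0.01. Ldha, which interconverts pyruvate and lactate, rose from 820 to 1694 CPM (log2 1.05, edgeR adjusted p = 0.000347). Tpi1, Eno3 and Aldoa, enzymes of the middle of the pathway, rose by 0.44, 0.48 and 0.64 (edgeR adjusted p = 0.00399, 0.00703 and 0.0114). The lower ones were Hk1 (-0.56, edgeR adjusted p = 0.0248), Hk3 (-0.77, 0.0169) and Pkm (-0.60, 0.0228), which hepatocytes use little and other cells of the liver use more. Without CD fed library 1 these 3 were at -0.42, -0.62 and -0.55 (edgeR adjusted p = 0.0870, 0.0589 and 0.0587), and without CD fast library 1 at -0.48, -0.66 and -0.56 (edgeR adjusted p = 0.0696, 0.0505 and 0.0560). Hk1 was also lost without CD fed library 2 (0.0547) or CD fast library 3 (0.0591), and Pkm without CD fed library 2 (0.0517) or CD fast library 4 (0.0518). The 5 macrophage markers summed to 184 to 293 CPM in CD fed and 114 to 184 CPM in CD fast, with 3 of the 5 called. The 5 endothelial markers went from 194 to 215 CPM down to 144 to 183 CPM, with 2 called, and the 5 stellate cell markers from 177 to 229 CPM down to 111 to 176 CPM, with 1 called. None of these markers was at 0, and their part in the values of Hk1, Hk3 and Pkm was not tested.

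After fasting in HFD, where 8.86% of all genes were called, 1 of the 18 was higher and 0 were lower. The higher one was Ldha (1061 to 1640 CPM, log2 0.63, edgeR adjusted p = 0.0253). The Ldha call in HFD was lost without HFD fed library 1 (0.61, edgeR adjusted p = 0.0755) or 2 (0.60, 0.0658), or HFD fast library 1 (0.54, 0.0766) or 3 (0.57, 0.0733). In fasted mice, where 7.70% of all genes were called, 4 of the 18 were lower and 2 higher on the HFD. Among them Tpi1 was lower by 0.48 on the log2 scale (497 to 356 CPM, edgeR adjusted p = 0.00936). Hk3 and Pkm were higher, by 0.88 and 0.64 (edgeR adjusted p = 0.0236 and 0.0386). The Hk3 call was lost without CD fast library 1 (edgeR adjusted p = 0.0650) or HFD fast library 3 (0.0591) or 4 (0.0757). The Pkm call was lost in 8 of 16 fits that left out 1 library, moving to 0.49 and an adjusted p of 0.128 without HFD fast library 4. Beside them, 2 of 5 endothelial, 1 of 5 stellate cell and 0 of 5 macrophage markers were called there, with sums of 179.6 to 246, 207 to 339 and 162 to 272 CPM in HFD fast, and their part was not tested. All 6 calls were lost in a fit of the fasted libraries alone, where 90 genes were called in the whole table.

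**Figure D5:**
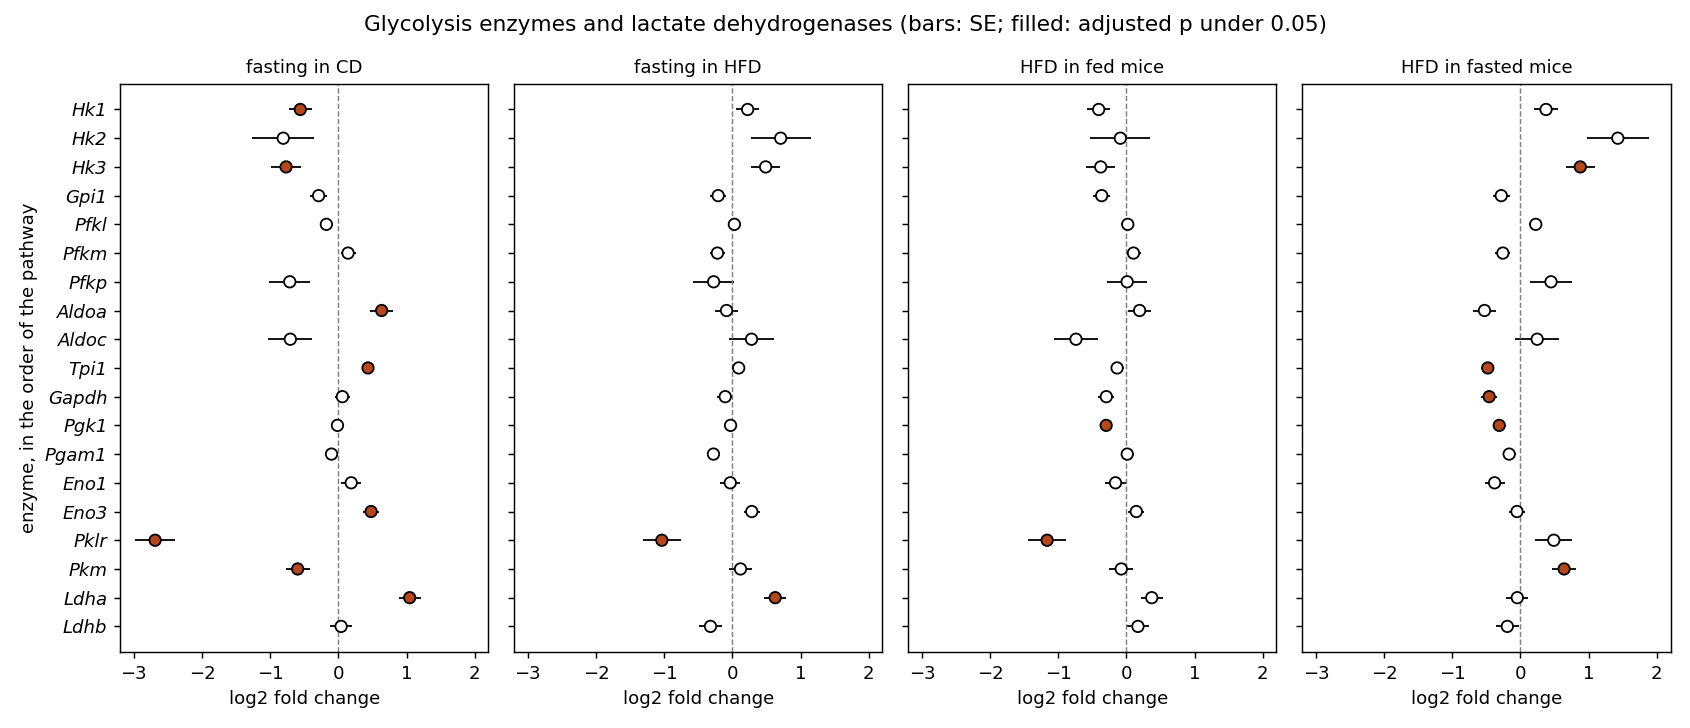
Log2 fold changes of glycolysis genes in pathway order, Pfkl and Pklr among them, in the 4 comparisons between groups, with SE as bars and filled points for an adjusted p below 0.05. Pklr stands at -2.69 for fasting in CD, and the genes drawn from Gpi1 to Eno3 lie between -0.71 and 0.64 there.

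Genes described as ChREBP targets, most of them lipogenic, were listed beside the 8. The list was drawn up with earlier results of these data known, so its counts beside those of all genes are a description only. Of 15 such genes 12 were lower and 0 higher after fasting in CD, and 9 were lower after fasting in HFD. On the HFD 8 were lower in fed mice, and 1 was higher and 2 lower in fasted mice. In the interaction 5 were higher. Over all genes 11.5% were called lower for fasting in CD, 4.07% for fasting in HFD and 4.22% for the HFD in fed mice. For the HFD in fasted mice 7.70% were called, and 1.23% were called higher in the interaction. The medians of the 15 were -1.94, -0.93, -0.999, -0.03 and 0.99 on the log2 scale, in that order. Fasn, the fatty acid synthase, fell by 3.44 on fasting in CD (1130 to 104 CPM, edgeR adjusted p = 1.2e-07) and Acaca, the first committed enzyme of fatty acid synthesis, by 2.02 (289 to 71.1 CPM, edgeR adjusted p = 1.28e-07). In the interaction Pnpla3, Fasn, Acaca, Thrsp and Acly were higher at 3.80, 1.97, 0.99, 4.59 and 1.49, the same direction as Pklr, and these 5 calls were kept in each of the 16 fits that left out 1 library. Thrsp, a regulator of lipogenesis, was the 1 higher on the HFD in fasted mice (9.74 to 82.1 CPM, log2 3.07, edgeR adjusted p = 0.00863), a call lost in a fit of the fasted libraries alone (0.0564). HFD fast library 2, at 200.6 CPM of Thrsp against 33.7 to 49.0 CPM in the others, moved these values most: without it Thrsp was at 2.12 in fasted mice and at 3.63 in the interaction (edgeR adjusted p = 0.0164 and 0.0119). Leaving out 1 library lost the calls of Elovl6, Arrdc4 and Pnpla3 for fasting in HFD in 12, 8 and 6 of 16 fits. It lost those of Me1 and Scd1 for the HFD in fed mice in 13 and 4, and those of Elovl6 and Arrdc4 in fasted mice in 7 and 2. Among the 3 not called for fasting in CD was Fgf21, a hepatic hormone also induced by fasting, at 1.43 (edgeR adjusted p = 0.0863).

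Many of these targets also respond to SREBP-1c, the insulin-driven factor encoded by Srebf1. Srebf1 was the 1 of 8 listed upstream factors called after fasting in CD, lower by 1.85 on the log2 scale (175 to 48.6 CPM, edgeR adjusted p = 2.79e-05). All genes together had 25.2% called there, and 8.86% for fasting in HFD. On fasting in HFD 2 of the 8 were lower, Srebf1 by 1.06 (235 to 112 CPM, edgeR adjusted p = 0.00624) and Hnf4a, a hepatocyte factor that acts on the Pklr promoter, by 0.55 (986 to 674 CPM, edgeR adjusted p = 0.00601). In fed mice Srebf1 measured 175 CPM on the CD and 235 CPM on the HFD, which was not called (log2 0.42, edgeR adjusted p = 0.222). The part of these factors in the values of the targets was not tested. In fasted mice Srebf1 was higher on the HFD by 1.21 (edgeR adjusted p = 0.00512), a call lost in a fit of the fasted libraries alone (edgeR adjusted p = 0.0556).

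For each of the 8 genes, the genes with the nearest profile over the 16 libraries were found among 11003 genes with a mean count of at least 100, by the root mean square difference of centred log2 CPM. Nearest to Pklr were Acaca (0.406), Keg1 (0.413) and Cyp4f14 (0.430), where the spread of Pklr itself was 1.06. Nearest to Mlxipl were Abcb10 (0.107), Haao (0.152) and Nit2 (0.165), and nearest to Khk were Haao (0.197), Tkt (0.214) and Cyp27a1 (0.223). For Txnip the nearest was Narf (0.350), the largest such distance after that of Pklr. For Slc2a2, Gckr, Pfkl and Pfkfb1 it was Tmem144 (0.166), Tmem14c (0.109), Gabpa (0.0961) and Sesn1 (0.221). These are descriptions over libraries that share their groups and scaling.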

How the data were processed

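The counts deposited by the authors are whole, unnormalized numbers per Ensembl gene in 1 table of 16 libraries. Poly(A) RNA was sequenced in paired ends on a HiSeq, aligned to GRCm38 with TopHat2 2.0.11 in its first-strand mode and counted with featureCounts. The labels name CASAVA 1.8.4 for demultiplexing, and the methods another version. The strand setting of featureCounts and the annotation release are not given in the sources used here, so overlapping genes are uncertain. Of 46078 genes, 45143 matched a symbol in the GENCODE annotation of GRCm38, which also gave exon lengths.

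edgeR 4.0.16 (R 4.3.3) was run on the 15075 genes that passed filterByExpr, with TMM scaling and a coefficient for each group, leaving 12 residual degrees of freedom. Quasi-likelihood tests used Benjamini-Hochberg adjustment over all genes tested and a threshold of 0.05. The SE was taken from the log2 fold change and its F statistic. Log2 CPM used a prior count of 2. Floors cover counting error only. Alternatives were DESeq2 1.42.0, limma-voom (limma 3.58.1), other scalings and filters, a replicate block, fits of the groups compared alone, a threshold of 0.01, and leaving out each library. The test was tried on simulated data.

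The 8 genes and the lists were chosen with earlier results of these data known. Genes named are the 8 and, from the lists, those that passed the test or serve as examples, up to 4 per list and comparison by smallest p. The same-direction promoter pair and the alternatives run for list and overlapping genes were chosen after seeing the data. The values of 1 gene of the lists are not reported here, although totals over lists include it.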

Additional observations from a re-analysis of the deposited data

Results flagged for a closer look

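For the 8 genes, the highest or lowest library was compared with the rest of its group of 4 by Dixon's criterion. Of 32 such groups 3 passed it, where chance gives about 1 in 20. Gckr measured 268.2 CPM in HFD fed library 1 against 212 to 218 CPM in the others, and 236.6 CPM in HFD fast library 2 against 166 to 175 CPM. Pklr measured 97.8 CPM in CD fast library 3 against 72.6 to 75.9 CPM.

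The fasting change of Pklr differed between the diets by 1.65 on the log2 scale (edgeR interaction test, adjusted p = 0.0369). In the main fit Pklr was the only one of the 8 genes for which that test passed, where 2.59% of all genes were called. The call was lost in 12 of 16 fits that left out 1 library. DESeq2 and total count scaling each called 2 of the 8, Slc2a2 beside Pklr.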

How the results depend on the processing

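The 11 called results of the 8 genes kept their direction in each alternative. Of 992 alternative results for the 8 genes, 916 kept direction and call, 45 lost a call, 11 gained one and 20 changed sign, none of these called.

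Counts of the 8 genes called that differed were, for fasting in HFD (3), 1 without a filter on low counts, 1 with only the groups compared, 2 with total count scaling and 0 at an adjusted p below 0.01. For the HFD in fed mice (1) they were 2 with DESeq2, 0 with only the groups compared and 0 below 0.01. For the HFD in fasted mice (0) 2 were called with total count scaling. For the interaction (1) 2 were called with DESeq2, 2 with total count scaling and 0 below 0.01. For fasting in CD (6), 5 were called with only the groups compared and 4 below 0.01.

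Over the whole table, counts below 0.01 were 1859, 331, 338, 217 and 31 for fasting in CD, fasting in HFD, the HFD in fed mice, the HFD in fasted mice and the interaction, against 3797, 1335, 1131, 1161 and 390 below 0.05. DESeq2 called 1768 for the HFD in fed mice, 1967 in fasted mice and 1079 for the interaction. For the HFD in fasted mice total count scaling called 2101 and the fit of the fasted libraries alone 90. The share of higher genes among those called was 54.4, 54, 43.8, 39.6 and 47.4% in that order, and 44.3, 67.6, 68.8, 88.1 and 69.5% with total count scaling. Upper quartile scaling gave 51.2% for the HFD in fasted mice.

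With 1 library left out, the whole-table counts were 2857 to 3958, 505 to 1533, 514 to 1268, 535 to 1354 and 147 to 461 in that order. Counts fell by over 1.5 times without HFD fed library 1, 2 or 3 or HFD fast library 1 or 3 for fasting in HFD, CD fed library 1 or 2 or HFD fed library 1 or 3 for the HFD in fed mice, CD fast library 1 or 2 or HFD fast library 3 or 4 in fasted mice, and 8 of the 16 for the interaction, lowest without CD fed library 2. Of the 8 genes 6, 0 to 4, 0 to 2, 0 to 1 and 0 to 2 were called. Uncalled values that changed sign ranged, for Pfkl, from -0.021 to 0.082 for fasting in HFD and from -0.0094 to 0.051 for the HFD in fed mice. For the HFD in fasted mice they ranged from -0.21 to 0.0078 for Gckr, -0.10 to 0.15 for Khk, -0.024 to 0.12 for Mlxipl and -0.31 to 0.23 for Txnip. There Txnip was also 0.13 with limma-voom, 0.13 with total count scaling and 0.0061 with upper quartile scaling, and Gckr 0.077 with total count scaling.

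Libraries with the same replicate number deviated together in only some cases: of 24 pairs 8 had a correlation over 0.1 (-0.243 to 0.662), and 9 matched their own number best, so the numbers were not taken as pairing. With a replicate block 3948, 1440, 1207, 1290 and 359 genes were called, and 6, 2, 1, 0 and 1 of the 8. The block turned Txnip for the HFD in fasted mice to 0.049, and Mlxipl for fasting in HFD had an adjusted p of 0.0625. Of 76 called results of list and overlapping genes 44 were kept in each alternative and 0 changed sign. The causes were not tested. Depth limited Slc2a4 in CD fast, Fbp2 in CD fed and Eno2, which had few counts.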
